A study of Homo sapiens with 58 samples.

Results

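Integrins and laminins, the cell-surface adhesion receptors and one of their main families of matrix ligands, were followed in 58 RNA-seq libraries of H1 cells, wild type human embryonic stem cells, on their way towards somites. The members were all genes of the deposited table whose symbols name an integrin α or β subunit or a laminin α, β or γ chain, a rule that uses no expression value. There were 38 of them among 19084 genes: 18 integrin α, 8 integrin β, 5 laminin α, 4 laminin β and 3 laminin γ genes.

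An integrin is a pair of 1 α and 1 β subunit that spans the membrane and ties the matrix to the actin cytoskeleton, and the pair decides which ligand is bound. A laminin is a trimer of an α, a β and a γ chain and forms the sheet on which a basement membrane is built. Human embryonic stem cells are commonly grown on laminin, to which they bind through the pair of ITGA6 and ITGB1, while ITGA5 with ITGB1 is the classical fibronectin receptor. Fibronectin and its receptor are known in mouse embryos for their part in the shaping of somites.

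A daily series held 3 libraries on each of 4 days. Day0 cells were embryonic stem cells kept in E8 medium. Day1 cells, labelled mesendoderm, had been given activin A at 100 ng/mL and CHIR99021, a GSK3 inhibitor that activates Wnt signalling, at 3 µM. Day2 cells, labelled presomitic mesoderm, were in E6 base medium with CHIR99021 at 3 µM, the TGF-β receptor inhibitor A83-01 at 2 µM, FGF2 at 100 ng/mL and the BMP antagonist NOGGIN at 100 ng/mL. Day3 cells, labelled somite, were in E6 with the MEK inhibitor PD0325901 at 1 µM, the Wnt inhibitor IWR1 at 2.5 µM, A83-01 at 2 µM and NOGGIN at 100 ng/mL. A second series followed presomitic mesoderm through 23 time points, sampled every 30 min between 30 and 690 min with 2 libraries each, 46 in all. The labels give neither its medium nor its zero point. All libraries came from 1 line at passages 30 to 40, and the labels do not say that replicates were separate cultures, so p-values measure the spread between libraries, which may be technical.

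Library totals ran from 3.16 M to 7.81 M expected counts in the daily series and from 2.53 M to 8.96 M in the course. A count of 0 therefore allows up to 3 counts, or 0.384 to 0.949 CPM in a daily library and 0.335 to 1.18 CPM in a course library, counting error only. The Day2 libraries agreed least with one another, at a mean r of 0.878 to 0.887 across genes, against 0.927 to 0.953 on the other days. They were also the shallowest of the daily series, at 3.51, 3.16 and 3.6 M, against at least 4.36 M on the other days. In the daily series each summed marker list was highest on the day of its label. Stem cell markers were at 4850 to 4900 TPM on Day0 and mesendoderm markers at 810 to 881 TPM on Day1. Presomitic markers were at 248 to 696 TPM on Day2 and somite markers at 794 to 960 TPM on Day3, where PAX1 was at 0 in every library. Stem cell markers still summed to 2590 to 2860 TPM on Day1, 782 to 1080 TPM on Day2 and 566 to 731 TPM on Day3. Presomitic markers were still at 167 to 216 TPM on Day3. On the scale of log2(TPM + 1) the median of all genes moved by -0.12 log2 units for Day1 over Day0 and -0.23 for Day2 over Day1. It moved by 0.33 for Day3 over Day2 and by 0 for Day3 over Day0. On log2(CPM + 1) without a scaling factor it moved by -0.22 for Day2 over Day1 and 0.33 for Day3 over Day2. In edgeR's fits it moved by at most 0.08. Their scaling takes most genes as unchanged, so that small value cannot show whether levels shifted as a whole. Fold changes below come from edgeR and TPM serves for levels. In edgeR 457 genes were called higher and 1042 lower on Day2 than on Day1, and limma on log2(TPM + 1) called 292 higher and 1618 lower. For Day3 over Day2 edgeR called 1153 higher and 515 lower, and limma 2066 higher and 308 lower. In bulk RNA, fewer cells of a type and less RNA per cell cannot be told apart.

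The promoters of 4 members are shown because LAMA5 and LAMB2 were called higher, and ITGB5 lower, both on Day3 and late in the course, while ITGA5 had the steepest called fall in the course. Each run is the 250 bases before the annotated start, read 5′ to 3′ on the gene's strand from RefSeq on GRCh38.p14, in which all 4 genes lie on the minus strand. They span chr20:62367313-62367562 for LAMA5, chr3:49133051-49133300 for LAMB2, chr12:54419267-54419516 for ITGA5 and chr3:124901419-124901668 for ITGB5, the most upstream of its 3 listed starts. Capitals mark GC boxes, searched as GGGCGG on both strands.
LAMA5: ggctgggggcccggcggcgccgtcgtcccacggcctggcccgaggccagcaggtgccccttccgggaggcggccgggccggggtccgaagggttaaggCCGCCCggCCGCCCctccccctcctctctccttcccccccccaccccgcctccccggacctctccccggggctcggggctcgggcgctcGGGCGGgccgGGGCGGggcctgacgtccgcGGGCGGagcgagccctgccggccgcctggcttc
LAMB2: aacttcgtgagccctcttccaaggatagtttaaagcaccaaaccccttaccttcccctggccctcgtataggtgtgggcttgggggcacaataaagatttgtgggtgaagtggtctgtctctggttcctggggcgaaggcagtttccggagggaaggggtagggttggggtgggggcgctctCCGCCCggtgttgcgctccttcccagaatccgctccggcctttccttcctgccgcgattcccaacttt
ITGA5: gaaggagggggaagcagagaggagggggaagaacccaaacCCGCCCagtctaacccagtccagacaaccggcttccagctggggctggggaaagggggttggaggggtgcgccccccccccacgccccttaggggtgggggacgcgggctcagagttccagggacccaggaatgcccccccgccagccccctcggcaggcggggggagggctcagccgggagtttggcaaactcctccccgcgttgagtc
ITGB5: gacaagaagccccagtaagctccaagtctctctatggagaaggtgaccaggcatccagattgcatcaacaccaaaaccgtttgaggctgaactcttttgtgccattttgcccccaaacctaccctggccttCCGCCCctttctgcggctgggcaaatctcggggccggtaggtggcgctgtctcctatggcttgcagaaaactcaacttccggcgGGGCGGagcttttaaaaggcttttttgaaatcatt
LAMA5 held 5 GC boxes, ITGB5 held 2, and LAMB2 and ITGA5 held 1 each, a motif present in 42.6% of the 35116 promoters of the same length in the table. The 4 promoters contained 82.8% (LAMA5), 58.4% (LAMB2), 70.0% (ITGA5) and 52.8% (ITGB5) G and C, against a median of 58.0% over all promoters. None of the 4 windows held any of 5 other motifs on either strand. These were the CCAAT box (CCAAT, in 32.0% of all promoters), the TATA box (TATAAA, in 10.7%), the AP-1 site (TGANTCA, in 6.57%), the TCF/LEF site (CTTTGA, in 11.2%) and the E-box (CACGTG, in 6.34%). Of the 38 members, 26 had a promoter in the table.

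Of the 38 genes, 23 had enough counts to be tested across the days: 13 of 26 integrins and 10 of 12 laminins. The 15 that were not tested stayed at or below 3.89 TPM in every daily library. Most are subunits of blood cells or epithelia. The leukocyte integrin genes ITGAD, ITGAL, ITGAM, ITGAX and ITGB2 reached at most 0.11, 0.35, 0.6, 0.28 and 1.03 TPM, and ITGB6 and ITGB7 were at 0 in all 12 libraries. ITGB6 was at 0 in all 58. ITGB4, the epithelial partner of ITGA6 in hemidesmosomes, reached 0.61 TPM, and LAMA3, an α chain of epithelial laminin, reached 0.39 TPM. ITGB3, ITGA10, ITGA11, ITGA8 and LAMB4 reached 1.35, 0.71, 0.36, 1.84 and 0.05 TPM. ITGA2B, the platelet fibrinogen receptor subunit, was at 0 in all 6 libraries of Day1 and Day2. It was at 1.1, 0.65 and 1.71 TPM on Day0 and at 0.85, 3.89 and 1.23 TPM on Day3. The 7 blood and platelet markers summed to 4.38 to 54.9 TPM on Day3, against at most 0.13 TPM on Day2. On Day3 the embryonic globin gene HBE1, at 0 on Day1 and Day2, made up nearly all of that sum, and GATA1, GP9, PF4, SPI1 and TAL1 were at 0. Their part in the ITGA2B level was not tested.

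The expressed set was narrow (plot of the make-up of each subunit group). ITGB1, the β subunit shared by most laminin, collagen and fibronectin receptors, made up 76.7% ± 0.443 of the summed TPM of the β genes on Day0, 68.8% ± 1.88 on Day1, 83.1% ± 2.68 on Day2 and 90.0% ± 1.41 on Day3 (SD, n = 3 each). ITGB5 took nearly all of the rest, with 22.9% ± 0.685, 30.6% ± 1.87, 15.4% ± 2.87 and 8.16% ± 1.64 over the same days. Among the α genes ITGA6 held 72.3% ± 11.7 on Day0, 37.4% ± 3.14 on Day1, 48.3% ± 6.61 on Day2 and 48.7% ± 11.0 on Day3. ITGA5 had 2.18% ± 0.526, 17.1% ± 4.58, 21.3% ± 4.24 and 13.3% ± 3.92. LAMA1 stayed the main laminin α gene, between 57.4% and 86.7% of the group in every daily library, and LAMC1 the main γ gene, between 78.5% and 97.9%. Shares are of mRNA levels per length and say nothing of how subunits pair.

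**Figure D1:**
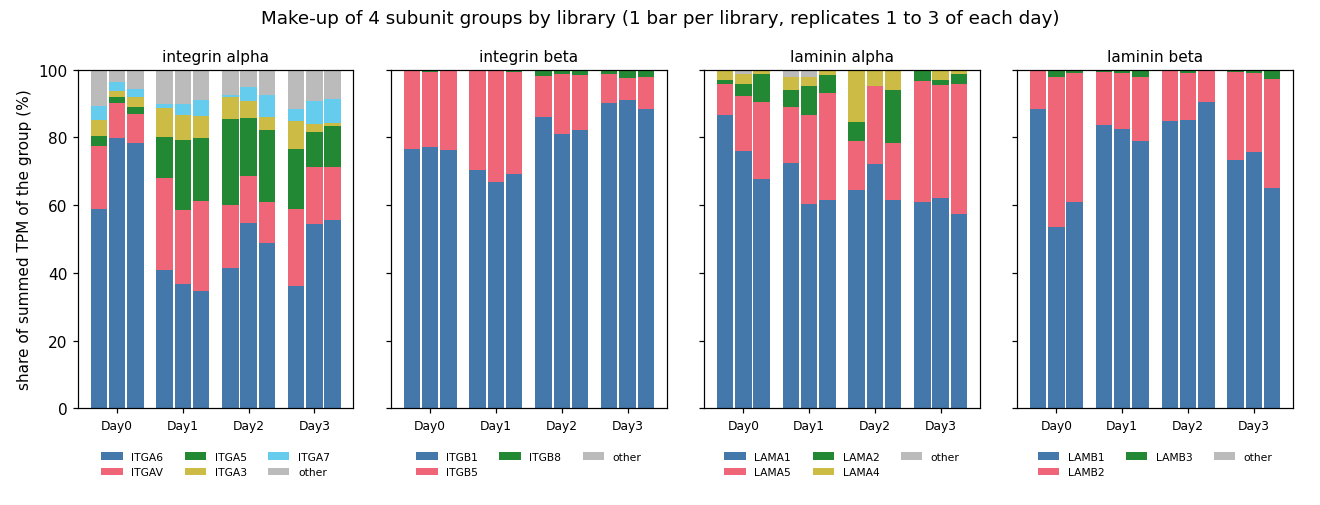
Share of the summed TPM of each subunit group (%, y axis) taken by each gene of the integrin α and β and laminin α and β groups, with 1 bar per library in day order. ITGB1 fills between 66.8% and 91.2% of the integrin β bars, and the ITGA6 share is between 34.7% and 40.8% on Day1 and between 58.9% and 79.8% on Day0.

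Among the α subunits, ITGA6 and ITGA5 moved in opposite directions at the first step. ITGA6 was at 51.8, 48.9 and 46.4 TPM on Day1, against 89.4, 273 and 224 TPM on Day0. All Day1 libraries lay below all Day0 libraries, and replicate 1 of Day0 was well below its 2 fellows. The log2 fold change was -1.86 (SE 0.37, adjusted p = 0.00469, edgeR). ITGA5 was at 15.2, 27.6 and 24.9 TPM on Day1, against 4.09, 5.63 and 6.3 TPM on Day0, again without overlap. Its log2 fold change was 2.20 (SE 0.28, adjusted p = 8.32e-05). These were the 2 members called between Day1 and Day0, where a call asks for an adjusted p under 0.05 and at least 1 log2 unit. Of all genes tested, 2.72% were called higher and 2.46% lower. Summed fibroblast and smooth muscle markers were at 592 to 664 TPM on Day1, against 119 to 276 TPM on Day0. Most of that sum was TAGLN, at 496 to 566 TPM on Day1, against 67.2 to 184 TPM on Day0, while COL1A1 was at 14.8 to 22.6 TPM on Day1, against 12.1 to 43.0 TPM on Day0, and DCN and LUM were at 0 in at least 1 library of each day. Definitive endoderm markers summed to 109 to 114 TPM on Day1, against 10.1 to 28.2 TPM on Day0. Of these GATA6 was at 78.4 to 93.5 TPM on Day1, against at most 0.17 TPM on Day0, while SOX17 and FOXA2 reached at most 1.57 and 3.38 TPM on Day1 and APOA1 was at 0 on both days. Their part in these changes was not tested.

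No later step was called for either α gene. ITGA5 was at 25.7, 19.0 and 26.6 TPM on Day2 and at 15.9, 19.1 and 23.7 TPM on Day3. The Day3 level was higher than that of Day0 by 1.90 log2 units (SE 0.28, adjusted p = 1.29e-04). ITGA6 was at 41.7, 60.7 and 61.2 TPM on Day2 and at 32.4, 102 and 109 TPM on Day3. Its Day3 value was 1.25 log2 units below Day0 (SE 0.36, adjusted p = 0.0202), with overlapping libraries. That call was lost without replicate 2 of Day0 (-0.98, adjusted p = 0.104), replicate 3 of Day0 (-1.11, adjusted p = 0.0754) or replicate 1 of Day3 (-0.89, adjusted p = 0.069), in a fit of the 6 Day3 and Day0 libraries alone (adjusted p = 0.051) and in limma on log2(TPM + 0.1) (adjusted p = 0.0609). Replicate 1 was the lowest for ITGA6 on Day0, Day2 and Day3.

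ITGAV, the α subunit of the receptors for vitronectin and latent TGF-β, was at 28.5, 36.0 and 24.4 TPM on Day0, 34.5, 29.1 and 35.3 TPM on Day1, 18.6, 15.5 and 15.5 TPM on Day2 and 20.5, 31.7 and 30.2 TPM on Day3. All Day2 libraries lay below all Day1 libraries. That difference of -0.84 log2 units (SE 0.19) passed the test (adjusted p = 0.00676), as 20.1% of all genes did at any fold, but not the fold limit. Over the 4 days ITGAV changed at an adjusted p of 0.0146, which moved to 0.0597, 0.0523 and 0.0586 without replicate 1 of Day1, replicate 2 of Day2 and replicate 3 of Day2.

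2 less abundant α genes were also called. ITGA2, a collagen receptor subunit, was at 0.06, 0.57 and 0.22 TPM on Day3, against 2.69, 2.5 and 4.66 TPM on Day0. Its log2 fold change was -3.55 (SE 0.96, adjusted p = 0.0135), lost without replicate 3 of Day0 (adjusted p = 0.0674) or replicate 1 of Day3 (adjusted p = 0.056). ITGA4, which binds fibronectin and VCAM1, was at 0, 0.44 and 0 TPM on Day2, against 2.35, 2.3 and 2.23 TPM on Day1. The 3 Day2 libraries held 4 counts in all and the 3 Day1 libraries 96. The fitted change of -3.74 log2 units (SE 1.10, adjusted p = 0.0256) became -8.11 without replicate 2 of Day2, and its adjusted p ran up to 0.0719 when single libraries of the 2 days were left out. ITGA1, ITGA3, ITGA7, ITGA9 and ITGAE were tested and not called, within 0.13 to 6.99, 2.04 to 10.9, 0.5 to 13.97, 0 to 8.47 and 0.48 to 2.82 TPM over the 12 libraries.

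Among the β subunits ITGB1 was the most abundant member throughout. It was at 584, 505 and 469 TPM on Day0, 490, 445 and 467 TPM on Day1, 468, 369 and 399 TPM on Day2 and 365, 394 and 425 TPM on Day3. All Day3 libraries lay below all Day0 libraries, by 0.38 log2 units (SE 0.13, adjusted p = 0.0515). Its change over the 4 days had an adjusted p of 0.08 in edgeR, of 0.0245 in DESeq2, and of 0.0498 without replicate 3 of Day2.

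ITGB5, the vitronectin receptor subunit that pairs with ITGAV, fell at 2 successive steps. It was at 175, 145 and 144 TPM on Day0 and at 203, 218 and 202 TPM on Day1, a difference of 0.54 log2 units (SE 0.17, adjusted p = 0.0705). On Day2 it was at 66.8, 81.8 and 78.2 TPM and on Day3 at 34.9, 27.3 and 45.7 TPM. No Day2 library reached any of Day1, and no Day3 library reached any of Day2. The log2 fold changes were -1.28 (SE 0.18, adjusted p = 2.12e-04) for Day2 over Day1, -1.34 (SE 0.18, adjusted p = 1.37e-04) for Day3 over Day2 and -2.08 (SE 0.18, adjusted p = 5.19e-07) for Day3 over Day0. Each of these 3 calls was made under all 20 alternatives tried.

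ITGB8, whose pair with ITGAV releases active TGF-β from its latent complex, moved the other way. It was at 2.37, 3.4 and 1.86 TPM on Day0, 2.94, 2.52 and 4.72 TPM on Day1, 9.07, 4.35 and 7.53 TPM on Day2 and 3.78, 10.1 and 9.28 TPM on Day3. The Day2 and Day1 libraries overlapped, and the Day3 libraries were all above those of Day0. The change was 1.22 log2 units for Day2 over Day1 (SE 0.40, adjusted p = 0.0396) and 1.62 for Day3 over Day0 (SE 0.40, adjusted p = 0.00783). The first was lost without replicate 1 of Day1, replicate 2 of Day1, replicate 1 of Day2 or replicate 3 of Day2 (adjusted p 0.108, 0.159, 0.123 and 0.0578) and in limma on TPM (adjusted p 0.157 and 0.181). The second was lost in limma on log2(TPM + 0.1) (adjusted p = 0.0643). Summed neural markers were at 358 to 577 TPM on Day2, against 134 to 275 TPM on Day1, most of it STMN2, at 328 to 544 TPM on Day2, against 124 to 251 TPM on Day1, and their part in the ITGB8 change was not tested.

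Between Day2 and Day1 these made 1 member called higher, ITGB8, and 2 called lower, ITGB5 and ITGA4, where 3.58% of all genes tested were higher and 8.16% lower. Without replicate 1 of Day1, replicate 2 of Day1 or replicate 3 of Day2, 1 member was called. Over all genes these fits called 1200, 864 and 1834, against 1499 in the main fit. No laminin gene was called at either of these first steps.

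**Figure D2:**
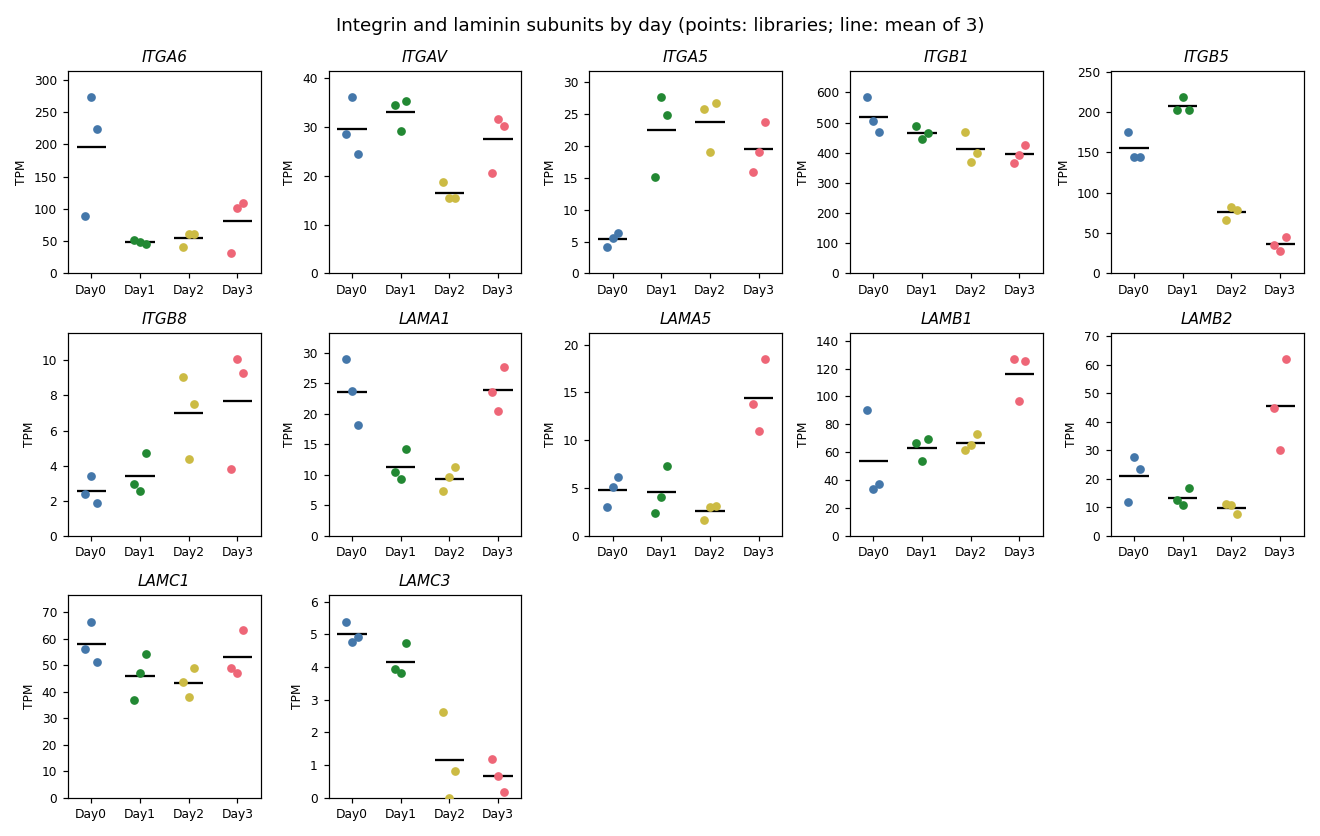
TPM (y axis, from 0) of 12 subunits by day (x axis), with 1 point per library and a line at the mean of 3. ITGA5 steps up at Day1, where its libraries are at 15.2 to 27.6 TPM, and ITGB5 ends at 27.3 to 45.7 TPM on Day3.

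All laminin calls between successive days fell at the last step. Between Day3 and Day2, 3 members were called higher and all were laminins (LAMA1, LAMA5 and LAMB2), and 2 were called lower, ITGB5 among them. Of all genes tested, 9.03% were higher and 4.03% lower. LAMA1 is the α chain of the first laminin of the embryo, LAMA5 that of laminins on which human stem cells are commonly grown, and LAMB2 a β chain that can take the place of LAMB1.

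LAMA5 was at 13.8, 11.0 and 18.5 TPM on Day3, against 1.61, 3.04 and 3.11 TPM on Day2. The groups were far apart, and Day3 was also above Day0, where the 3 libraries were at 3.05, 5.07 and 6.11 TPM. The log2 fold change was 2.21 over Day2 (SE 0.39, adjusted p = 0.00107) and 1.63 over Day0 (SE 0.37, adjusted p = 0.00429). LAMA5 shares its locus with ADRM1 and LAMA5-AS1 on the opposite strand in GENCODE, and whether counting used strand is not stated, so reads of overlapping partners cannot be told apart. The same holds for ITGA2, ITGA5, ITGA6, ITGAV, ITGB1, ITGB5, ITGB8, LAMA1, LAMB1 (which overlaps DLD) and LAMC1.

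LAMB2 was at 44.9, 30.0 and 61.8 TPM on Day3, against 11.0, 10.6 and 7.53 TPM on Day2. No protein-coding, antisense, lincRNA or processed-transcript gene overlapped it on the opposite strand, and other gene types were not searched. The lowest Day3 library was above every library of the other days, since Day0 had 11.6, 27.7 and 23.4 TPM and Day1 had 12.4, 10.8 and 16.7 TPM. The log2 fold change was 1.95 over Day2 (SE 0.32, adjusted p = 6.33e-04) and 1.16 over Day0 (SE 0.30, adjusted p = 0.0112). The second call was lost without replicate 1 of Day0 (0.87, adjusted p = 0.0481) or replicate 3 of Day3 (0.93, adjusted p = 0.0524).

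LAMA1 was at 28.9, 23.7 and 18.1 TPM on Day0, 10.4, 9.3 and 14.1 TPM on Day1, 7.29, 9.55 and 11.2 TPM on Day2 and 23.5, 20.5 and 27.7 TPM on Day3. It dipped over the middle days: the Day1 libraries were all below those of Day0, and the Day3 libraries all above those of Day2. The Day1 difference of -0.95 log2 units (SE 0.22, adjusted p = 0.0123) passed the test, as 7.29% of all genes did at any fold, but not the fold limit, which it did pass without replicate 3 of Day0 (-1.10) or replicate 3 of Day1 (-1.12). The Day3 difference from Day2 of 1.08 (SE 0.22, adjusted p = 0.00303) was called, but not without replicate 1 of Day2 (0.91). Day3 and Day0 differed by 0.05 log2 units (SE 0.22, adjusted p = 0.915).

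LAMB1, by mean the most abundant laminin gene on Day1, Day2 and Day3 but below LAMC1 on Day0, was at 127, 96.8 and 125 TPM on Day3, against 90.3, 33.7 and 37.3 TPM on Day0. Every Day3 library was above every Day0 library, but replicate 1 of Day0 stood near the lowest of Day3. The log2 fold change was 1.13 (SE 0.29, adjusted p = 0.00913). It was 1.75 without replicate 1 of Day0, and the call was lost without replicate 2 (0.86) or replicate 3 of Day0 (0.93, adjusted p = 0.0546). Day1 had 66.5, 53.6 and 69.7 TPM and Day2 61.2, 64.9 and 73.0 TPM. The Day3 libraries were above all of Day2, with a fitted change of 0.54 (SE 0.28, adjusted p = 0.181).

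LAMC1, the γ chain of most laminins, was at 56.0, 66.5 and 51.2 TPM on Day0, 36.9, 47.0 and 54.3 TPM on Day1, 43.5, 38.0 and 49.0 TPM on Day2 and 49.1, 47.3 and 63.1 TPM on Day3. The groups overlapped at each step, and no change over the 4 days was detected (adjusted p = 0.701).

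LAMC3, a γ chain of restricted expression, was at 1.19, 0.66 and 0.19 TPM on Day3, against 5.39, 4.76 and 4.91 TPM on Day0. The groups did not overlap. Its change of -2.84 log2 units (SE 0.85, adjusted p = 0.0245) was lost without any 1 of the 3 Day0 libraries, or without replicate 2 or replicate 3 of Day3 (adjusted p 0.0531 to 0.0768). LAMA2, LAMA4 and LAMB3 stayed within 0 to 2.84, 0.06 to 1.76 and 0 to 5.32 TPM and were not called.

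Over the whole protocol, 5 members were called higher on Day3 than on Day0 (ITGA5, ITGB8, LAMA5, LAMB1 and LAMB2) and 5 lower (ITGA2, ITGA6, ITGB5 and LAMC3 among them), where 7.07% of all genes tested were higher and 7.09% lower. Without replicate 3 of Day0, 4 were called higher and 2 lower. Over all genes that fit called 689 higher and 763 lower of 13113, against 902 and 905 of 12765 in the main fit. A difference among any of the 4 days passed in 12 of the 23 tested members, against 43.6% of all genes tested. Beside the laminin changes, summed fibroblast and smooth muscle markers were at 770 to 1100 TPM on Day3, against 621 to 704 TPM on Day2 and 119 to 276 TPM on Day0, and their part was not tested. Within that list COL1A1 was at 212 to 355 TPM on Day3, against 11.4 to 24.1 TPM on Day2, TAGLN at 338 to 714 TPM on Day3, against 412 to 434 TPM on Day2, and DCN and LUM were at 0 in at least 1 library of each of these days. The markers of parietal and visceral endoderm, embryonic tissues rich in LAMA1 in the mouse, summed to 0.45 to 1.74 TPM on Day3, against 0 to 1.19 TPM on Day2. Endothelial markers summed to 4.91 to 13.4 TPM on Day3, against 9.3 to 14.6 TPM on Day2.

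**Figure D3:**
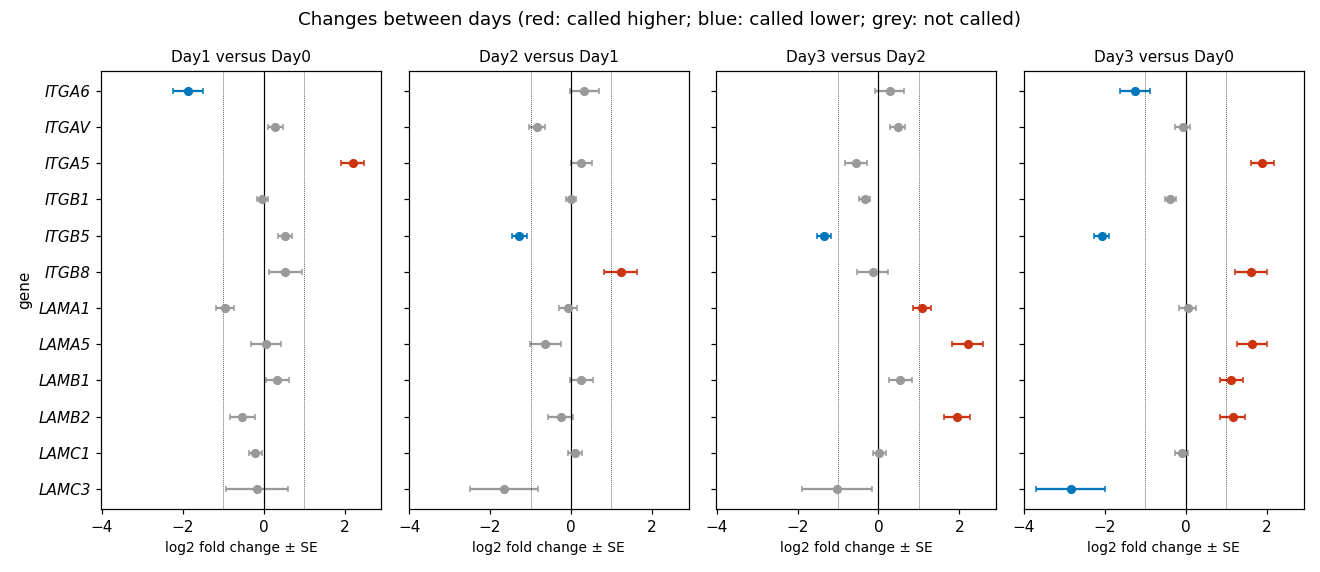
Fitted log2 fold change ± SE (x axis, later over earlier day) of 12 subunits in 4 comparisons; dotted lines mark 1 log2 unit either way. LAMA5 at 2.21 and LAMB2 at 1.95 are farthest to the right for Day3 over Day2, and ITGB5 is called lower in 3 of the 4 panels.

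Other genes of the same pathway were read from 3 lists. Of 29 tested genes for basement membrane components and integrin ligands, 12 were called higher and 2 lower on Day3 than on Day2, where 9.03% of all genes tested were higher and 4.03% lower. Their median log2 fold change was 0.89, against 0.08 over all genes. On Day3 against Day0, 14 were higher and 4 lower (median 1.07, against 0.04), where 7.07% of all genes were higher and 7.09% lower. The counts were 1 higher and 5 lower for Day1 over Day0 (all genes 2.72% and 2.46%), and 2 higher and 3 lower for Day2 over Day1 (all genes 3.58% and 8.16%). For Day1 over Day0, 3 genes were called without replicate 2 of Day0, replicate 1 of Day1 or replicate 2 of Day1. Over all genes these fits called 444, 435 and 458, against 661 in the main fit.

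Type IV collagen forms the second network of a basement membrane, beside that of laminin. Its gene COL4A1 averaged 377 ± 87.3 TPM on Day3 and 59.5 ± 17.3 TPM on Day2 (SD, n = 3 each), and COL4A2 averaged 302 ± 78.0 and 39.7 ± 17.8 TPM on these days. Their log2 fold changes were 2.40 (SE 0.19, adjusted p = 5.32e-07) and 2.67 (SE 0.28, adjusted p = 1.19e-05). SPARC, a collagen-binding matrix protein, averaged 796 ± 218 TPM on Day3 and 219 ± 6.39 TPM on Day2 (log2 fold change 1.59, adjusted p = 5.43e-05). FBLN1, a matrix glycoprotein, averaged 209 ± 57.4 TPM on Day3 and 62.2 ± 16.9 TPM on Day2 (log2 fold change 1.45, adjusted p = 4.72e-04). MFGE8, a ligand of ITGAV with ITGB5, averaged 67.8 ± 39.0 TPM on Day3 and 11.4 ± 3.49 TPM on Day2 (log2 fold change 2.31, adjusted p = 0.001), below the 241 ± 111 TPM of Day0 (-1.79, adjusted p = 0.00169). Fibronectin itself, FN1, averaged 125 ± 36.6 TPM on Day3 and 28.0 ± 5.04 TPM on Day0 (log2 fold change 2.18, adjusted p = 7.40e-06).

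Of 41 tested integrin adapters and signalling partners, 4 were higher and 3 lower on Day3 than on Day2 (all genes 9.03% and 4.03%), with a median of 0.02, and 7 were higher and 5 lower than on Day0 (all genes 7.07% and 7.09%). The counts were 1 and 1 for Day1 over Day0 (all genes 2.72% and 2.46%) and 2 and 4 for Day2 over Day1 (all genes 3.58% and 8.16%). In all, 4 adapters were called for Day3 over Day2 without replicate 3 of Day3, where 964 of all genes were called, against 1668 in the main fit. For Day2 over Day1, 3 were called without replicate 3 of Day1 (all genes 1181, against 1499). For Day1 over Day0, 1 was called without replicate 1 of Day0, replicate 1 of Day1 or replicate 3 of Day1 (all genes 570, 435 and 487, against 661). CD9, a tetraspanin that binds integrins, averaged 855 ± 294 TPM on Day0, 174 ± 76.7 TPM on Day2 and 41.1 ± 19.1 TPM on Day3, and fell by 4.37 log2 units for Day3 over Day0 (adjusted p = 3.08e-07). BSG, basigin, a membrane glycoprotein, averaged 325 ± 120 TPM on Day3 and 92.5 ± 12.7 TPM on Day2 (log2 fold change 1.54, adjusted p = 1.17e-04). That rise followed a called fall for Day2 over Day1 (-1.41, adjusted p = 2.76e-04). TES, a focal adhesion protein, averaged 103 ± 13.6 TPM on Day1 and 34.5 ± 17.0 TPM on Day0 (log2 fold change 1.68, adjusted p = 0.00247), and was lower again on Day2 than on Day1 (-1.70, adjusted p = 0.00164). The kinase gene FYN averaged 74.9 ± 14.7 TPM on Day3 and 34.4 ± 14.2 TPM on Day0 (log2 fold change 1.20, adjusted p = 0.00203, but 0.93 without replicate 1 of Day0). VASP, an actin regulator, averaged 37.4 ± 6.76 TPM on Day3 and 84.1 ± 17.8 TPM on Day0 (-1.14, adjusted p = 0.00147).

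Of 21 tested genes for dystroglycan, its partners and other laminin receptors, 3 were higher and 1 lower on Day3 than on Day2 (all genes 9.03% and 4.03%) and 1 higher and 3 lower than on Day0 (all genes 7.07% and 7.09%). The counts were 1 and 0 for Day1 over Day0 (all genes 2.72% and 2.46%) and 1 and 2 for Day2 over Day1 (all genes 3.58% and 8.16%). In all, 2 were called for Day3 over Day2 without replicate 1 of Day2 or replicate 2 of Day3 and 1 without replicate 3 of Day3. Over all genes these fits called 1479, 1802 and 964, against 1668 in the main fit. For Day3 over Day0, 2 were called without replicate 1 or replicate 3 of Day3 (all genes 1459 and 1778, against 1807). The 3 calls for Day2 over Day1 were lost without replicate 2 of Day1 (all genes 864, against 1499). SDC2, a syndecan, averaged 113 ± 31.4 TPM on Day3 and 42.7 ± 4.13 TPM on Day2 (log2 fold change 1.12, adjusted p = 0.00312, but 0.95 without replicate 3 of Day3). The sarcoglycan gene SGCB averaged 33.3 ± 12.8 TPM on Day3 and 11.1 ± 3.91 TPM on Day2 (1.31, adjusted p = 0.00561). The syndecan gene SDC1 averaged 12.2 ± 4.39 TPM on Day3 and 26.8 ± 0.898 TPM on Day0 (-1.11, adjusted p = 0.00537, but -0.91 without replicate 1 of Day3). SDC4 was called lower on Day3 than on Day0 (-1.11), SGCE higher on Day2 than on Day1 (1.08) and TMEM5 lower on Day3 than on Day2 (-1.19). Each of these calls was lost without single libraries, at adjusted p up to 0.0798 (SDC4), 0.0935 (SGCE) and 0.0888 (TMEM5).

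In the course of presomitic mesoderm, 25 members were tested, and the 13 others stayed at or below 2.72 TPM. A difference among the 23 time points passed in 8 members (ITGA5, ITGB5, ITGA6, ITGB8, LAMA5, LAMB1 and LAMB2 among them), against 28.9% of all genes tested. A fitted linear change of at least 1 log2 unit between 30 and 690 min was called in 3 members in the higher direction (LAMB2, LAMA5 and LAMB3) and in 2 in the lower (ITGA5 and ITGB5), where 5.78% of all genes tested were higher at the end and 6.34% lower.

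ITGA5 had its fall early. It was at 62.1 and 68.1 TPM at 30 min, 38.9 and 54.1 TPM at 90 min and 20.6 TPM in both libraries at 150 min. It was at 8.33 and 9.29 TPM at 630 min and at 13.8 and 16.5 TPM at 690 min. The 6 libraries of 630 to 690 min had a lowest, median and highest level of 8.06, 10.5 and 16.5 TPM, against 38.9, 57.7 and 68.1 TPM in the 6 of 30 to 90 min. The 2 sets did not overlap, and the fitted change was -2.28 log2 units (SE 0.18, adjusted p = 3.48e-16).

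ITGB5 declined over the whole span. It was at 199 and 217 TPM at 30 min, 156 and 159 TPM at 330 min and 82.6 and 86.7 TPM at 690 min. The late libraries had 75.7, 79.1 and 86.7 TPM as lowest, median and highest, against 173, 213 and 226 TPM in the early ones, again without overlap. The fitted change was -1.44 log2 units (SE 0.09, adjusted p = 2.86e-20). Its share of the β genes had a median of 17.6% late and 37.2% early, while the ITGB1 change of -0.09 (SE 0.07, adjusted p = 0.326) was not called.

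LAMB2 was flat over the first hours and then climbed. It was at 17.4 and 17.7 TPM at 30 min, 12.5 and 17.4 TPM at 150 min, 26.1 and 34.8 TPM at 330 min, 42.2 and 45.2 TPM at 450 min and 42.8 and 46.3 TPM at 690 min. The late libraries had 37.7, 44.5 and 59.1 TPM, against 17.3, 17.9 and 22.4 TPM in the early ones. All late libraries were above all early ones, and the fitted change was 1.65 log2 units (SE 0.13, adjusted p = 1.75e-16).

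LAMA5 followed a similar but noisier course. It was at 4.76 and 5.6 TPM at 30 min, 1.94 and 3.16 TPM at 150 min, 10.7 and 11.4 TPM at 330 min and 14.5 and 15.0 TPM at 690 min. At 450 min its 2 libraries were at 15.9 and 7.71 TPM and at 510 min at 4.27 and 10.5 TPM, so single time points carry little weight. The late libraries had 10.1, 13.6 and 15.0 TPM, against 3.79, 4.78 and 5.6 TPM in the early ones. They did not overlap, and the fitted change was 1.62 log2 units (SE 0.21, adjusted p = 7.14e-09). Within the laminin α genes the LAMA5 share had a median of 41.9% late and 21.6% early, and within the β genes the LAMB2 share was 32.9% late and 14.8% early.

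LAMA1, called higher on Day3 than on Day2, showed no detectable trend in the course. Its late libraries had 13.2, 14.9 and 19.8 TPM, against 13.3, 15.4 and 18.0 TPM in the early ones, and the fitted change was 0.05 log2 units (SE 0.11, adjusted p = 0.754). LAMC1 changed by -0.18 (SE 0.09, adjusted p = 0.114) and ITGAV by 0.09 (SE 0.15, adjusted p = 0.663).

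A trend of any size passed in 7 of the 25 tested members, against 33.6% of all genes tested. LAMB1 was lowest in the middle of the course. It was at 101 and 121 TPM at 30 min, 50.8 and 52.8 TPM at 450 min and 86.9 and 99.6 TPM at 690 min. Its fitted trend of -0.31 log2 units (SE 0.12, adjusted p = 0.0497) turned to 0.079 (adjusted p = 0.706) without the first 3 time points. ITGB8 was at 4.71 and 5.11 TPM at 30 min, at 14.3 and 14.5 TPM at 420 min and at 11.0 and 13.6 TPM at 690 min. Its late libraries, at 7.11 to 13.6 TPM, were all above the early ones at 4.29 to 5.89 TPM. The ITGB8 trend of 0.48 (SE 0.22, adjusted p = 0.0883) did not pass. ITGA6 was at 18.2 and 21.8 TPM at 30 min and 27.7 and 35.2 TPM at 210 min, and its trend was -0.25 (SE 0.15, adjusted p = 0.194). LAMB3, whose fitted change was 2.58 log2 units (SE 0.78, adjusted p = 0.00729), never passed 4.86 TPM and was at 0 in 10 of the 46 libraries, and limma on log2(TPM + 1) gave 0.95.

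**Figure D4:**
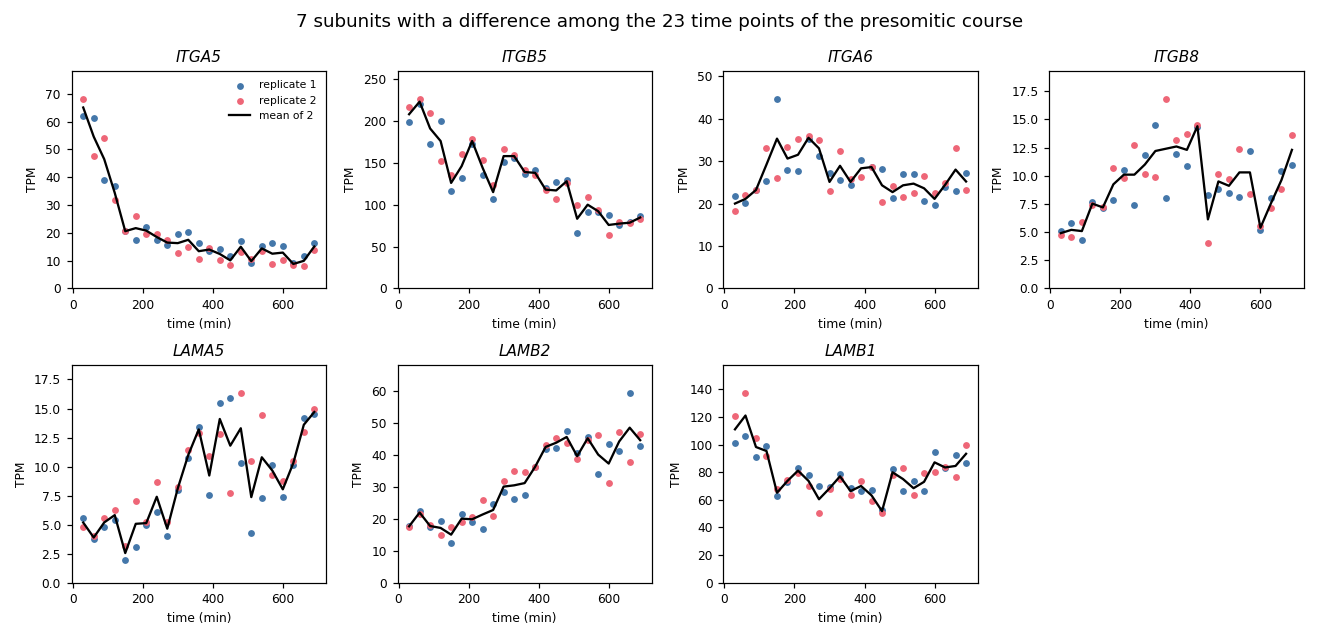
TPM (y axis, from 0) against time in minutes (x axis) for 7 members that differed among time points, with 2 libraries and their mean at each point. ITGA5 averages 65.1 TPM at 30 min and 20.6 TPM at 150 min, while LAMB2 reaches 43.7 TPM at 450 min.

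The daily and course series share no libraries. LAMA5, LAMB2 and ITGB5 were called between Day3 and Day2 and for a trend in the course, with the same direction in both. How many of all genes did so was not counted. LAMB1 had opposite signs, with 0.54 log2 units for Day3 over Day2 and a fitted trend of -0.31, neither of them called. The course did not start at the Day2 levels. Early in it ITGB5 was at 173 to 226 TPM, LAMB2 at 17.3 to 22.4 TPM and LAMA5 at 3.79 to 5.6 TPM. On Day2 they were at 66.8 to 81.8, 7.53 to 11.0 and 1.61 to 3.11 TPM. Late in the course ITGB5 was at 75.7 to 86.7 TPM, against 27.3 to 45.7 TPM on Day3. LAMB2 at 37.7 to 59.1 TPM and LAMA5 at 10.1 to 15.0 TPM overlapped Day3. ITGA5 was at 38.9 to 68.1 TPM early in the course, against 19.0 to 26.6 TPM on Day2. Late in the course it was at 8.06 to 16.5 TPM, against 15.9 to 23.7 TPM on Day3. The ITGA5 log2 fold change of -0.56 for Day3 over Day2 (SE 0.27, adjusted p = 0.141) was not called. Late in the course somite markers summed to 1020 to 1290 TPM, against 12.0 to 25.3 TPM early. Presomitic markers summed to 594 to 757 TPM late and 1170 to 1400 TPM early, against 248 to 696 TPM on Day2. Fibroblast and smooth muscle markers were at 772 to 920 TPM late, against 479 to 635 TPM early, with COL1A1 at 168 to 250 TPM late, against 48.6 to 74.4 TPM early. Definitive endoderm markers summed to 248 to 452 TPM late, against 108 to 227 TPM early, nearly all of it CXCR4, at 245 to 443 TPM late, against 102 to 220 TPM early. SOX17, FOXA2 and FOXA1 reached at most 0.32 TPM in these libraries. Their part in the member changes was not tested.

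A test for a rhythm was made because the study concerned oscillation in presomitic mesoderm. It asked for a cosine and a sine of period 300 min beside a linear and a quadratic term. That period was taken from an earlier pass over these same data. It called 0 of the 25 tested members in edgeR, where 0.132% of all genes tested passed. At an unadjusted p under 0.05 there were 3 members (LAMA4, LAMA5 and ITGA3), and DESeq2 and limma on either TPM scale called 0. A period of 330 min called LAMA5 (adjusted p = 0.0195), a setting in which 615 genes passed, and fitting without a filter on low counts called LAMA5 (adjusted p = 0.00551), LAMA4 (adjusted p = 0.0159) and ITGB4 (adjusted p = 0.0328), where 644 genes passed in place of 18.

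In the pathway lists, the course called 3 of 43 tested adapters higher and 2 lower, 1 of 28 basement membrane and ligand genes higher, and 3 of 21 dystroglycan and other laminin receptor genes higher and 1 lower, where 5.78% of all genes tested were higher and 6.34% lower. SDC2 had a median of 231 TPM late and 95.0 TPM early (fitted change 1.58, adjusted p = 1.10e-20), and dystrophin, DMD, had 26.2 TPM late and 3.51 TPM early (fitted change 2.84, adjusted p = 1.21e-18). VASP had 61.3 TPM late and 121 TPM early (-1.13, adjusted p = 6.76e-16), and SDC1 had 19.2 TPM late and 41.1 TPM early (-1.46, adjusted p = 1.28e-12). The basement membrane gene that was called was FREM1, at 4.81 TPM late and 1.18 TPM early (1.96, adjusted p = 4.32e-06), and that count ranged up to 3 when single libraries were left out.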

How the data were processed

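Total RNA of H1 cells was sequenced after LM-seq library preparation, per the labels' protocols. Alignment used Bowtie 0.12.2, and hg19 and mm8 are named as builds, per the submitters' processing notes. Not given in the sources used here are the counter, its strand setting, the annotation and what mm8 served for. The authors deposited expected counts per gene, without mitochondrial genes, and TPM values, which they rescaled to the same sum in each library.

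After rounding of the expected counts, all genes were tested with edgeR 4.0.16 in R 4.3.3 (quasi-likelihood F tests, TMM, filterByExpr, Benjamini-Hochberg adjustment). The daily fit used 12 libraries and 12765 genes, the course fit 46 libraries and 13653 genes. SE is the absolute log2 fold change divided by the square root of F. DESeq2 1.42.0 and limma 3.58.1 on log2(TPM + 1) and log2(TPM + 0.1) were alternatives, beside RLE factors, other filters, a replicate block, fits of only the 6 libraries compared, and each library left out. The fits were also tried on simulated counts with the same dispersion for every gene. Changes were planted only in genes with ample counts, so their recovery in low-count genes was not tested. Members were taken by symbol, but the choice of these families, the gene lists and the tests was made with earlier results of these data known. Described in full were called members reaching a mean of 5 TPM on any day and the most abundant 3 integrin α, 2 integrin β and 3 laminin genes; from each list, at most 6 called genes of highest mean TPM were named, save a few that are not reported here, though counts include them. Promoter sequences come from RefSeq on GRCh38.p14, overlaps from a GENCODE annotation of GRCh38; gene coordinates of the files' build were not used here.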

Additional observations from a re-analysis of the deposited data

How the results depend on the processing

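Depth limits the low members: 15 could not be tested in the daily series, and calls under about 5 TPM rest on few counts. With single libraries left out, the members called ran from 2 to 3 for Day1 over Day0, 1 to 3 for Day2 over Day1, 4 to 7 for Day3 over Day2, 6 to 10 for Day3 over Day0, 9 to 14 for any change over the days and 5 to 6 for a trend in the course, and stayed at 0 for a rhythm. A rhythm was called in 3 members with no filter on low counts and in 1 with a period of 330 min. The LAMB1 trend in the course, too small to be called, was reversed, at 0.079, without the first 3 time points. No called fold change of a named gene changed sign under the alternatives tried. The cause of these shifts was not tested. Over all genes, the count for Day1 over Day0 was 661, 1139 with only the 6 libraries of both days and 435 without replicate 1 of Day1; for Day2 over Day1 it was 1499, and 864 without replicate 2 of Day1; for Day3 over Day2 it was 1668, 1008 with the 6 libraries and 964 without replicate 3 of Day3. With single libraries left out, the all-gene count for Day3 over Day0 ran from 1408 to 2033, against 1807 in the main fit. For any change over the days it ran from 4687 to 5984, against 5562. For a trend in the course it ran from 1591 to 1695, against 1655. The rhythm count was 18 and ran from 1 to 644.

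Replicate numbers paired the libraries weakly if at all. Same-numbered libraries of different days correlated at -0.113 to 0.167 in their deviations, with 3 of 18 pairs over 0.1. Of the 12 daily libraries, 6 correlated best with their own number. Same-numbered libraries of different time points correlated at -0.0977 to 0.0887. With the replicate number as a block, 2, 3, 5 and 10 members were called for Day1 over Day0, Day2 over Day1, Day3 over Day2 and Day3 over Day0, 12 for any change, 8 for any difference in the course, 5 for a trend and 0 for a rhythm, the counts without the block.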
